A study of Xenopus laevis with 16 samples.

Results

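The comparison described here set animal caps against whole embryos of Xenopus laevis at the early gastrula (stage 10), in control samples only. Its members were the 4 control arrays of stage 10, 2 of animal caps and 2 of whole embryos, out of 16 arrays in the series. All 4 samples came from embryos that had received control morpholino at the 2-cell stage, 60 ng in each blastomere, so no sample of this comparison was uninjected. Animal caps, the ectodermal roof of the blastula, were cut out at stage 8 and kept in a medium of higher salt strength than the whole embryos until stage 10. Each cap sample pooled 25 explants and each embryo sample pooled 3 embryos. The other arrays of the series held the same tissues at stage 9 (late blastula) or after injection of PVD2, a morpholino mixture against the class V POU factors. The control arrays of stage 9 and the PVD2 arrays of stage 10 are used below only for values set side by side and for 1 test of change between stages.

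In the amphibian embryo the germ layers are laid out along the animal to vegetal axis. Maternal RNAs held at the vegetal pole, among them the T-box factor VegT and a Vg1-type ligand, switch on Nodal ligands and the endodermal factors of the Mix, Sox17 and Gata families, and Nodal with FGF signalling induces mesoderm in the marginal zone. On the dorsal side the organizer secretes antagonists of BMP, Wnt and Nodal. The animal cells lie away from these sources. They stay multipotent through the blastula, then take an epidermal fate under BMP or a neural fate where BMP is blocked. A whole embryo contains its own animal cells, so a ratio of caps to embryos compares a part with the whole that holds it.

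Each array carried the sample in green (Cy3) and, in red (Cy5), a common reference pooled from whole embryos of 11 stages. The value of a probe is the log2 ratio of sample over that reference. A negative value means less RNA than in the reference pool, and the difference between tissues is caps minus embryos on the log2 scale. Between 58.4% and 60.1% of the 21495 probes were well above background in Cy3 on each of the 4 arrays, while the median net Cy3 signal was 66.6 to 68.4 intensity units on the cap arrays and 27.0 to 33.1 on the embryo arrays. Across probes, the ratios of the 2 cap arrays correlated at r = 0.93 and those of the 2 embryo arrays at r = 0.92, against r = 0.79 to 0.87 between tissues. Tissue, scan day, dissection and culture medium coincided, since each slide held 1 tissue and all cap slides were scanned on another day than the embryo slides, and these differences cannot be told apart. In addition, fewer cells of a type and less RNA per cell cannot be told apart in such bulk samples.

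At stage 10, 578 of 21475 probes differed between caps and embryos (limma, false discovery rate of 0.05), which is 2.69% of the probes tested. Of these, 304 were higher in caps (1.42%) and 274 were lower (1.28%). Over the 12049 probes that were well above background on both arrays of the tissue with the higher ratio, called kept probes below, 569 were called (4.72%), 300 higher in caps (2.49%) and 269 lower (2.23%). The 4 arrays of most called probes did not overlap between tissues, which held for 565 of the 569. Among all probes with 4 values, 51.8% did not overlap. The larger differences lay on the side of the embryos, with 352 kept probes at least 1 log2 unit lower in caps and 228 at least 1 unit higher. Most of these were not called, since only 238 of all called probes differed by at least 1 unit in either direction. The median difference was 0.01 over all probes and 0.05 over kept probes. The number of calls depended on every array and on the normalization. It was 103 without replicate 1 of the caps, 110 without replicate 2, 185 without replicate 1 of the embryos and 119 without replicate 2. The share of calls that were higher in caps was 52.6% here, 15.5% of 58 calls when arrays were centred on their median in place of loess, and 66.1% of 2615 calls with the scanner software's own log ratio.

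**Figure D1:**
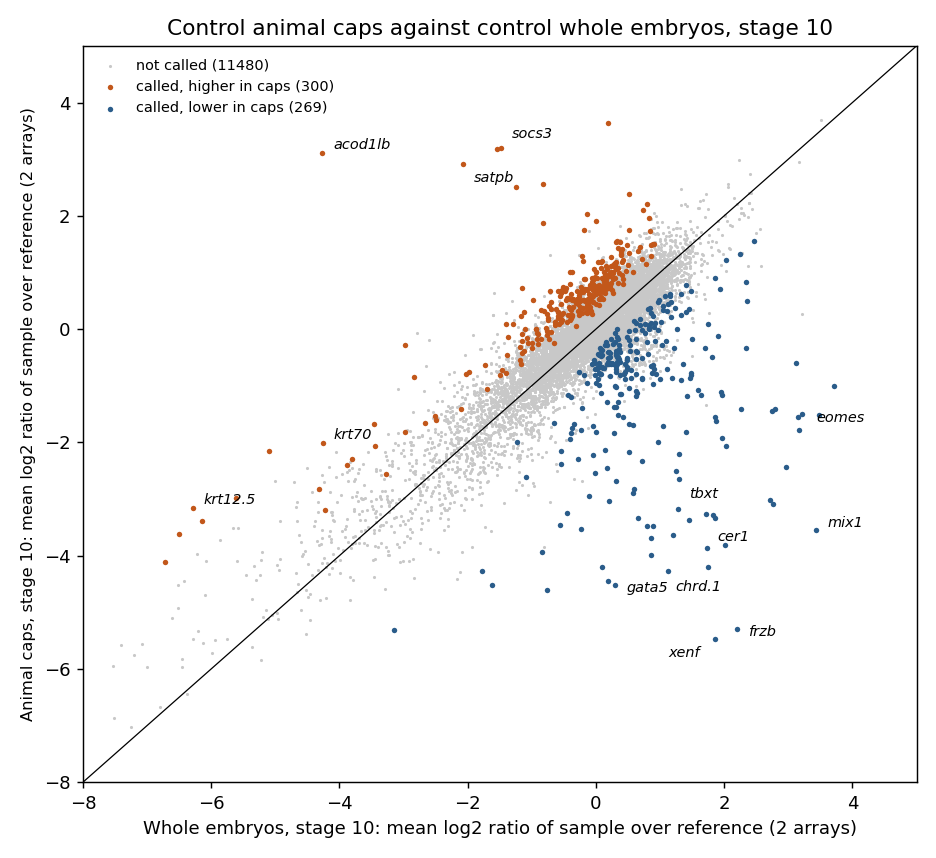
Mean log2 ratio of sample over reference in control whole embryos (x axis, 2 arrays) and control animal caps (y axis, 2 arrays) at stage 10, 1 point per kept probe, with called probes in colour (300 higher in caps, 269 lower) and the line of equal ratios. The called probes below the line reach a difference of -7.51 at frzb, and acod1lb, at 7.38, stands apart above it.

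The genes with the largest deficit in caps encoded secreted antagonists and regulators of mesoderm, endoderm and organizer. Frzb, a secreted Wnt antagonist, read -5.21 and -5.38 on the cap arrays and 1.99 and 2.42 on the embryo arrays. Both cap arrays thus lay far below the reference pool and both embryo arrays above it, a difference of -7.51 ± 0.41 (SE, adjusted p = 0.000126), or 182-fold. Xenf followed at -7.34 ± 0.52 (adjusted p = 0.000417) and mix1, a paired-like homeobox factor of the endoderm, at -6.99 ± 0.47 (adjusted p = 0.000344). The other 7 of the 10 largest named deficits were flrt3 (-5.94), bix1.2 (-5.86), hhex (-5.81), gdf3 (-5.74), cer1 (-5.59), bix1.3 (-5.40) and chrd.1 (-5.39). Flrt3, a transmembrane modulator of FGF signalling and adhesion, was called on 2 probes, the other at -5.19. Each of these genes was above background on both cap arrays.

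The 3 largest named excesses in caps fell on genes that are on none of the lists used below. Acod1lb, which the reference annotation names as a relative of the vertebrate aconitate decarboxylase gene acod1, read 3.29 and 2.94 in caps and -3.82 and -4.71 in embryos. The difference was 7.38 ± 1.09 (adjusted p = 0.0132), 167-fold, with no overlap. Satpb read 3.05 and 2.77 in caps against -2.08 and -2.07 in embryos, a difference of 4.98 ± 0.48 (adjusted p = 0.00183). Socs3, a feedback inhibitor of cytokine and STAT signalling, read 3.19 and 3.19 in caps against -1.62 and -1.34 in embryos (difference 4.67 ± 0.88, adjusted p = 0.0328). It was not well above background on either embryo array, so its embryo level is only a bound and no fold is given. These 3 genes were above the reference pool in caps and below it in embryos. Whether their excess goes with region, dissection, culture medium or scan day cannot be told apart here.

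Keratins and ion pumps made up most of the remaining genes of that group. Krt12.5, an epidermal type I keratin, differed by 3.13 ± 0.41 (adjusted p = 0.00767), and a probe titled in the files as a gastrula stage epidermal type I cytokeratin by 2.76 ± 0.38 (adjusted p = 0.00945). Krt70, another epidermal keratin, differed by 2.25 ± 0.44 (adjusted p = 0.0377). The keratin ratios were negative in both tissues, for example -3.33 and -2.99 in caps and -6.23 and -6.35 in embryos for krt12.5. The endoplasmic calcium pump gene atp2a1 differed by 2.62 ± 0.29 (adjusted p = 0.00348) and atp1b2, a subunit of the sodium pump, by 1.79 ± 0.30 (adjusted p = 0.0213). The list closed with btg2, an antiproliferative gene (1.98 ± 0.30, adjusted p = 0.0141), and ackr3, an atypical chemokine receptor (1.87 ± 0.31, adjusted p = 0.0190).

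Known genes of each region were then followed in 10 lists, with 1 probe per gene. Of the 25 mesoderm genes, 20 were matched to the array and 19 were kept, 16 lower in caps and 3 higher. Of all 12049 kept probes, 5316 read lower. The test called 7 of the 19 mesoderm genes, all lower, or 36.8% beside 4.72% of all kept probes. The median difference of the kept mesoderm genes was -0.89 beside 0.05 over all kept probes. The genes called included transcription factors and ligands of the marginal zone. Eomes, a T-box factor at the head of mesendoderm formation, read -1.82 and -1.19 in caps and 2.94 and 3.50 in embryos (difference -4.72 ± 0.52, adjusted p = 0.00348). A probe of the same gene with a weaker signal differed by -4.71. Tbxt, the pan-mesodermal T-box factor Brachyury, read -3.11 and -3.24 in caps and 1.09 and 1.46 in embryos (-4.45 ± 0.50, adjusted p = 0.00354). In both genes the gap between tissues exceeded the distance between arrays of a tissue several times over.

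The remaining mesoderm calls were signals and factors acting with them. The difference was -3.24 ± 0.29 for snai1, a zinc finger repressor that acts in mesoderm (adjusted p = 0.00133), and -3.22 ± 0.21 for the ligand fgf8 (adjusted p = 0.000285). The ligand fgf20 (-2.26), the posterior homeobox factor cdx4 (-2.16) and wnt11b, a ligand of the non-canonical Wnt pathway (-1.56), were also lower. A tbxt.2 probe, assigned to the same family as tbxt, read -0.40 without passing (adjusted p = 0.599). Other mesoderm genes read lower in caps without passing, among them foxf1 (-1.76, adjusted p = 0.0745). Foxc2 (-1.33), evx1 (-0.89), msgn1 (-0.80), hoxd1 (-0.80) and tbx6 (-0.72) stood at adjusted p = 0.220 to 0.608. Cdx1 (-0.01) and cyp26a1 (-0.05) had overlapping arrays. The arrays did not overlap in 14 of the 19 kept mesoderm genes, all 7 called ones among them, beside 6700 of all 12049 kept probes. The 3 kept genes above 0 were the myogenic factors myod1 and myf5 and the homeobox factor cdx2, all with overlapping arrays. Myod1 read -2.67 and -1.35 in caps and -2.67 and -1.89 in embryos, and cdx2 differed by 0.08. Myf5 was not above background on either embryo array, so no difference is given for it.

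Of 20 organizer genes, 17 were matched and 13 kept. Of these, 9 were above background on all 4 arrays, and all 9 of them read lower in caps, 6 called, with a median of -3.05. Of all probes above background on all 4 arrays, 43.4% read lower and 4.93% were called, with a median of 0.06. Another 3 of the 13 were above background on no cap array and foxa4 on 1, so the choice of kept genes fixed their direction. Besides frzb, the secreted antagonists included cer1, a blocker of Nodal, BMP and Wnt, which read -3.99 and -3.73 in caps and 1.75 and 1.70 in embryos. Its difference of -5.59 ± 0.18 had the lowest adjusted p of all probes (7.89e-06). Chrd.1, the BMP antagonist Chordin, read -3.88 and -4.66 in caps against 0.92 and 1.32 in embryos (-5.39 ± 0.46, adjusted p = 0.00111). The Wnt antagonist dkk1 differed by -2.10 ± 0.34 (adjusted p = 0.0188) and the Nodal inhibitor lefty by -2.67 ± 0.54 (adjusted p = 0.0434).

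Nodal3.1, a divergent Nodal ligand of the organizer, was not well above background on either cap array. With the cap signal raised to no less than the array's lowest detected signal, its Cy3 signal was an estimated 28.3-fold lower in caps. Such Cy3 estimates are not strict bounds. The ratios of nodal3.1 were -1.36 and -1.66 against 3.74 and 3.22 (adjusted p = 0.00767). Nog, the BMP antagonist Noggin, was also not above background in caps, with a Cy3 estimate of 1.56-fold lower (adjusted p = 0.00705). The transcription factors called were hhex of the anterior endomesoderm (-5.81 ± 0.45, adjusted p = 0.000635) and the forkhead factor foxa4 (-4.98 ± 0.46, adjusted p = 0.00160), the latter above background on 1 of the 2 cap arrays. Admp (-3.05 ± 0.73, adjusted p = 0.0695) and frzb2 (-2.46 ± 0.57, adjusted p = 0.0637) missed the threshold. Gsc, the classical organizer homeobox factor, was above background on only 1 embryo array and on no cap array, so its probe gave no usable difference, and fst and shh were above background on none.

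**Figure D2:**
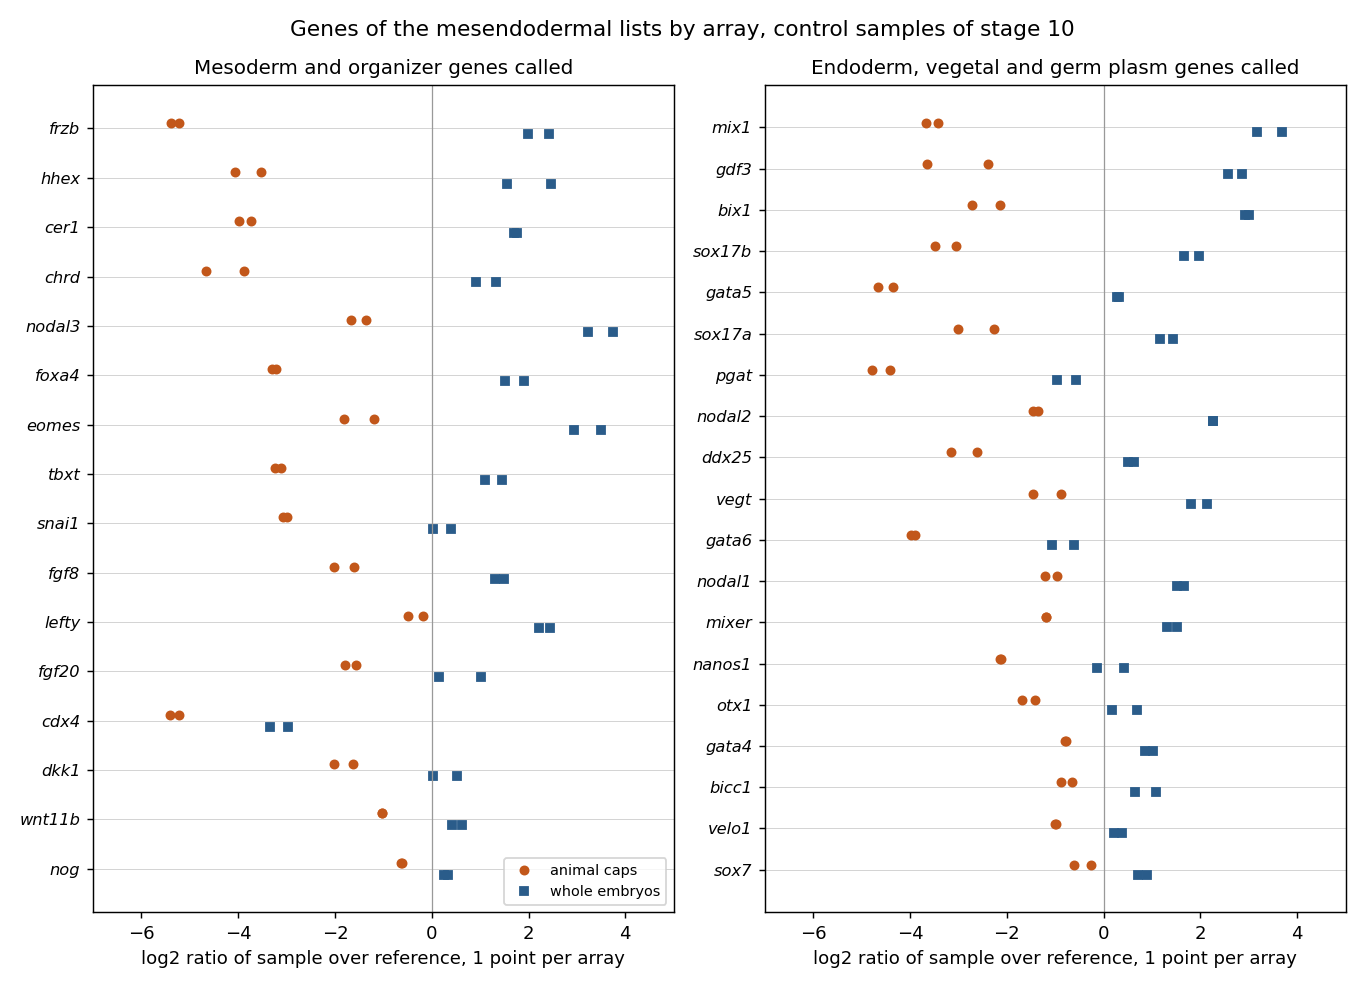
Log2 ratio of sample over reference on each of the 4 control arrays of stage 10 (circles, animal caps; squares, whole embryos) for the genes called in the mesoderm and organizer lists (left) and in the endoderm and vegetal lists (right), ordered by difference. In every gene drawn, both cap arrays lie below both embryo arrays. Only called genes are drawn, and the arrays do not overlap in 565 of all 569 kept probes called.

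Endoderm genes gave a similar picture. Of 19 genes, 16 were matched and 15 kept. The 11 above background on all 4 arrays were all lower in caps, 9 of them called, with a median of -3.94. Of all such probes, 43.4% read lower and 4.93% were called. The other 4 kept genes were above background on no cap array, which fixed their direction when they were kept, and 2 of these were called. Homeobox factors of the Mix family included the largest differences. Mix1 read -3.68 and -3.43 in caps and 3.70 and 3.17 in embryos, a second probe assigned to it differed by -3.72, the 3 bix1 probes by -4.95 to -5.86, and mixer by -2.60 ± 0.29 (adjusted p = 0.00348). The HMG box factor sox17b.1 differed by -5.09 ± 0.27 (adjusted p = 0.000126) and sox17a by -3.94 ± 0.28 (adjusted p = 0.000417). Among the Gata factors of the endoderm, gata5 differed by -4.82 ± 0.28 (adjusted p = 0.000177) and gata6 by -3.09 ± 0.48 (adjusted p = 0.0158), with a second gata6 probe at -3.03 that did not pass (adjusted p = 0.0686). Gata4 was not above background in caps, with a Cy3 estimate of 2.81-fold lower (adjusted p = 0.0306).

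Ligands of the Nodal and Vg1 type followed the same direction. Gdf3, a TGF-beta family ligand of the vegetal region, read -3.66 and -2.39 in caps and 2.58 and 2.86 in embryos (-5.74 ± 0.35, adjusted p = 0.000227), with the widest spread between cap arrays among the called endoderm genes. Nodal1 differed by -2.67 ± 0.39 (adjusted p = 0.0123). Nodal2 was not above background on the cap arrays, with a Cy3 estimate of 12.4-fold lower there (adjusted p = 0.0153). The earliest ligands nodal5 and nodal6 were likewise not above background in caps, with Cy3 estimates of 2.06-fold and 2.24-fold lower. Neither passed the test (adjusted p = 0.118 and 0.0987), and nodal, the probe named Xnr4, read -1.98 ± 0.66 (adjusted p = 0.175).

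Genes of the vegetal and germ plasm list were lower in caps as well. Of 17 genes, 9 were matched and kept, all 9 were lower in caps and 8 were called, with a median of -1.97. All 9 were above background on all 4 arrays. Of all such probes, 43.4% read lower and 4.93% were called. Pgat, a germ plasm protein, read -4.41 and -4.79 in caps and -0.57 and -0.95 in embryos (-3.84 ± 0.48, adjusted p = 0.00656). The germ plasm helicase ddx25 differed by -3.46 ± 0.24 (adjusted p = 0.000344) and the translational repressor nanos1 by -2.27 ± 0.29 (adjusted p = 0.00723). A second nanos1 probe, not kept because it was above background on only 1 embryo array, read -0.37 with overlapping arrays (adjusted p = 0.895). Vegt read -1.45 and -0.88 in caps against 1.81 and 2.13 in embryos (-3.13 ± 0.23, adjusted p = 0.000417), and its other probe differed by -3.48. The remaining calls were otx1 (-1.97), bicc1 (-1.64), velo1 (-1.30) and sox7 (-1.25). A second bicc1 probe read -0.71 and was not called (adjusted p = 0.297). Plin2 (-0.60, adjusted p = 0.134) was not called on its brighter probe, whereas its dimmer probe was called at -1.71.

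Detection in caps was counted over the same 4 lists. Of their 56 kept genes, 48 were well above background on both cap arrays and 7 on neither, beside 95.1% and 2.87% of all kept probes. Those shares are no like baseline. The 6733 kept probes higher in caps were on both cap arrays by the choice of kept probes, and most genes of these lists were lower. The 7 were nodal3.1, nog, sia1, nodal2, gata4, nodal6 and nodal5. Foxa4 was above background on 1. What part RNA from marginal or vegetal cells left on the explants had in these cap levels was not tested.

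**Figure D3:**
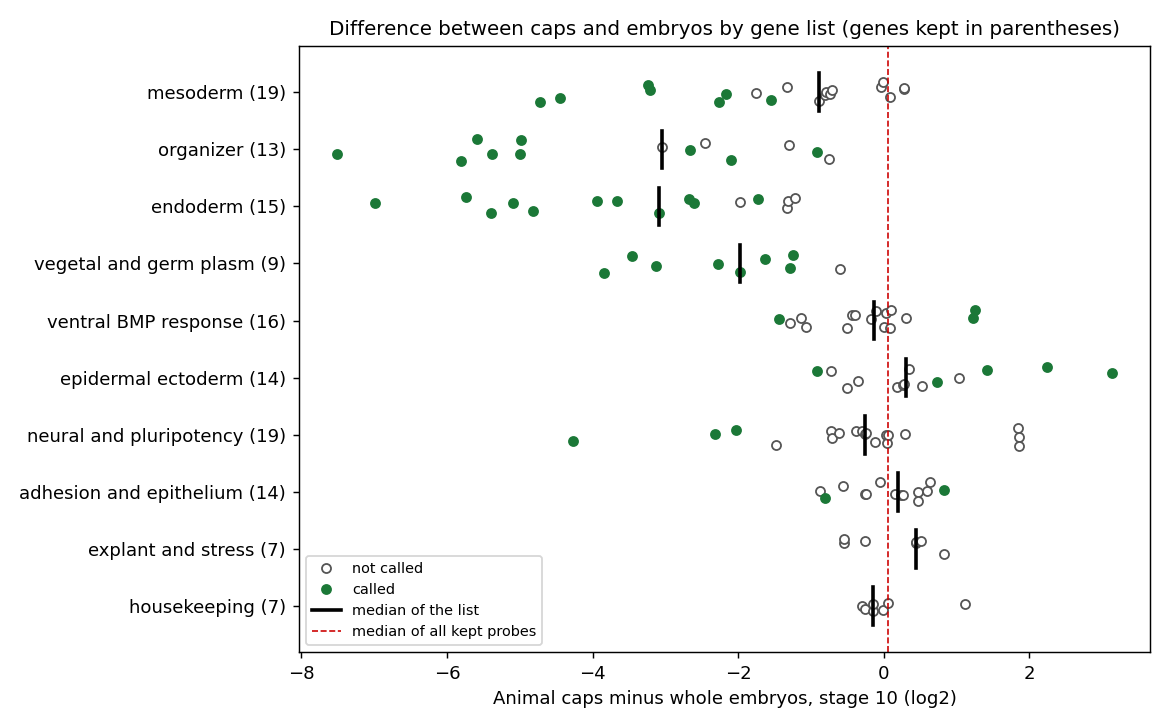
Difference between control caps and embryos at stage 10 (x axis, log2) for each kept gene of the 10 lists, filled where called, with the median of each list as a black bar and the median of all kept probes, 0.05, as a dashed line. The kept genes of the organizer, endoderm and vegetal lists lie below 0. The choice of kept genes fixed that direction for the 7 that were on no cap array above background and for foxa4, which was on 1. The epidermal list spans -0.92 to 3.13.

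Epidermal genes were divided. Of 22 genes, 15 were matched and 14 kept, 10 higher and 4 lower, with 4 called higher, 1 called lower and a median of 0.31. Of all 12049 kept probes, 6733 read higher, 2.49% were called higher and 2.23% were called lower. The keratins krt12.5 and krt70 led, followed by klf17, a Kruppel-like factor of the ectoderm, which read 2.29 and 2.13 in caps and 0.87 and 0.71 in embryos (1.42 ± 0.28, adjusted p = 0.0402). Further probes of these genes read in the same direction without passing, klf17.1 at 0.42 (adjusted p = 0.0937) and krt70 at 1.51 (adjusted p = 0.409). Krt8.1, a simple epithelial keratin, differed by 0.73 ± 0.15 (adjusted p = 0.0443). The gene called lower was foxi4.2, a forkhead factor of the ectoderm, at 1.60 and 1.49 in caps and 2.36 and 2.58 in embryos (-0.92 ± 0.20, adjusted p = 0.0491), although a second probe of foxi4.2 differed by only -0.26. Grhl1, a regulator of epidermal keratin genes, read 1.03 ± 0.38 (adjusted p = 0.221) and foxi1, a factor of ionocytes and early ectoderm, -0.35 ± 0.99 (adjusted p = 0.916). Other members of the krt12 family on the array did not share the difference of krt12.5, at -0.25 for krt12.2 and -0.16 for krt12.6.

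Genes that respond to BMP gave no common direction. Of 22 genes, 18 were matched and 16 kept, 7 higher and 9 lower. The test called 18.8% of the 16, beside 4.72% of all kept probes. The median of the list, -0.14, turned to 0.20 when arrays were centred on their median. Genes of non-neural ectoderm called higher were dlx3 (1.22 ± 0.25, adjusted p = 0.0412) and id3, a helix-loop-helix inhibitor (1.25 ± 0.27, adjusted p = 0.0495). Ventx3.2, a homeobox repressor of the ventral side, was called lower (-1.44 ± 0.25, adjusted p = 0.0237). Under the 20 alternatives given at the end, dlx3 lost its call in 15, id3 in 10 and ventx3.2 in 8. The related ventx1.1 read -1.14 ± 0.26 without passing (adjusted p = 0.0626), and the BMP pseudoreceptor bambi read 0.03 and tfap2a, a factor of non-neural ectoderm, 0.10.

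Among genes of neural ectoderm and pluripotency, 19 of 21 were matched and kept, 7 higher and 12 lower. On the probe used, 3 were called (15.8%, beside 4.72% of all kept probes), all lower. Irx3, an Iroquois factor, read -4.03 and -2.92 in caps and 0.64 and 0.96 in embryos (-4.27 ± 0.52, adjusted p = 0.00551). The probe named FoxD5a differed by -2.03 ± 0.35 (adjusted p = 0.0243), whereas a foxd4l1.2 probe, assigned to the same family, was called in the opposite direction at 0.60 (adjusted p = 0.0126), so that family has no single direction here. The largest positive values, 1.86 for irx2, 1.85 for sox2 and 1.84 for hes5.10, a Notch target, all missed the threshold (adjusted p = 0.139 to 0.304). Sox2 in embryos spread from -2.44 to -0.76.

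Of the class V POU genes targeted by the study, pou5f3.3 and pou5f3.1 were matched to the array, and neither was called. Pou5f3.3 (Xlpou60) read 1.04 and 1.64 in caps and 0.98 and 1.62 in embryos, a difference of 0.04 ± 0.23 (95% interval -0.48 to 0.56, adjusted p = 0.963). Pou5f3.1 (Xlpou91) read 0.12 and -0.22 in caps against 0.32 and 0.60 in embryos, -0.51 ± 0.33 (95% interval -1.26 to 0.24, adjusted p = 0.515). No probe was matched to Xlpou25, which is not analysed here.

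Adhesion genes went both ways. Of 23 genes, 15 were matched and 14 kept, 8 higher and 6 lower, with 2 called (14.3%, beside 4.72% of all kept probes). Their differences ran from -0.88 to 0.83, with a median size of 0.47 beside 0.25 over all kept probes, and a signed median of 0.20 that turned to -0.07 in the Cy3 channel alone. Ctnnd1, which encodes the cadherin-binding p120-catenin, was called higher (0.59 and 0.53 in caps, -0.26 and -0.28 in embryos, adjusted p = 0.0443). The fibronectin receptor subunit itga5 was called lower (-0.81 ± 0.17, adjusted p = 0.0499). Cdh1, the E-cadherin gene, read 0.16 ± 0.17 (adjusted p = 0.726) and cdh3, the maternal C-cadherin gene, -0.57 ± 0.20 (adjusted p = 0.201).

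Genes induced by dissection or stress were looked at because caps are explants. Only 7 of the 22 genes on that list were matched. All 7 were kept and 0 were called by limma, beside 4.72% of all kept probes, with 3 at an unadjusted p under 0.05. Of these 3, jun read higher in caps, and hsf1 (-0.54) and gadd45a (-0.54) read lower. In the Cy3 channel alone 3 were called, 1 higher and 2 lower. Jun had the highest difference, 0.83 ± 0.32 (adjusted p = 0.251). The median of the 7 genes, 0.44, turned to -0.13 in the Cy3 channel alone and to -0.08 without the second cap array. On that array jun read 0.89, and on the other 3 arrays it read -0.23 to -0.51. Of 16 housekeeping genes, 9 were matched, 7 kept and 0 called by limma, 1 of them (rplp0) at an unadjusted p under 0.05, with a median of -0.15 that turned to 0.11 under median centring. The brighter gapdh probe read 1.11 ± 0.53 (adjusted p = 0.359).

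To ask whether these differences between caps and embryos were already present at the late blastula, the control arrays of stage 9 were set beside those of stage 10. They are other samples on the same slides, so the change between stages was measured within slides and a constant offset between scan days cancels in it. The differences at each stage keep such an offset. The sign counts and list medians that follow therefore cannot tell it from a difference between tissues. Of the 300 kept probes called higher in caps at stage 10, 289 were above 0 at stage 9 as well, and of the 269 called lower, 250 were below 0. For all kept probes the shares were 84.1% of those higher and 75.5% of those lower. The median difference of the organizer list was -1.66 at stage 9 and -3.05 at stage 10, with a larger size at stage 10 in 13 of 13 kept genes. The mesoderm list stood at -0.32 and -0.89 (larger in 15 of 19), the endoderm list at -2.03 and -3.09 (11 of 15), and the vegetal and germ plasm list at -2.21 and -1.97 (6 of 9). Over all kept probes the difference was larger in size at stage 10 for 57.1%. Kept probes were chosen by detection at stage 10 alone, so all these counts of size can lean toward stage 10.

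**Figure D4:**
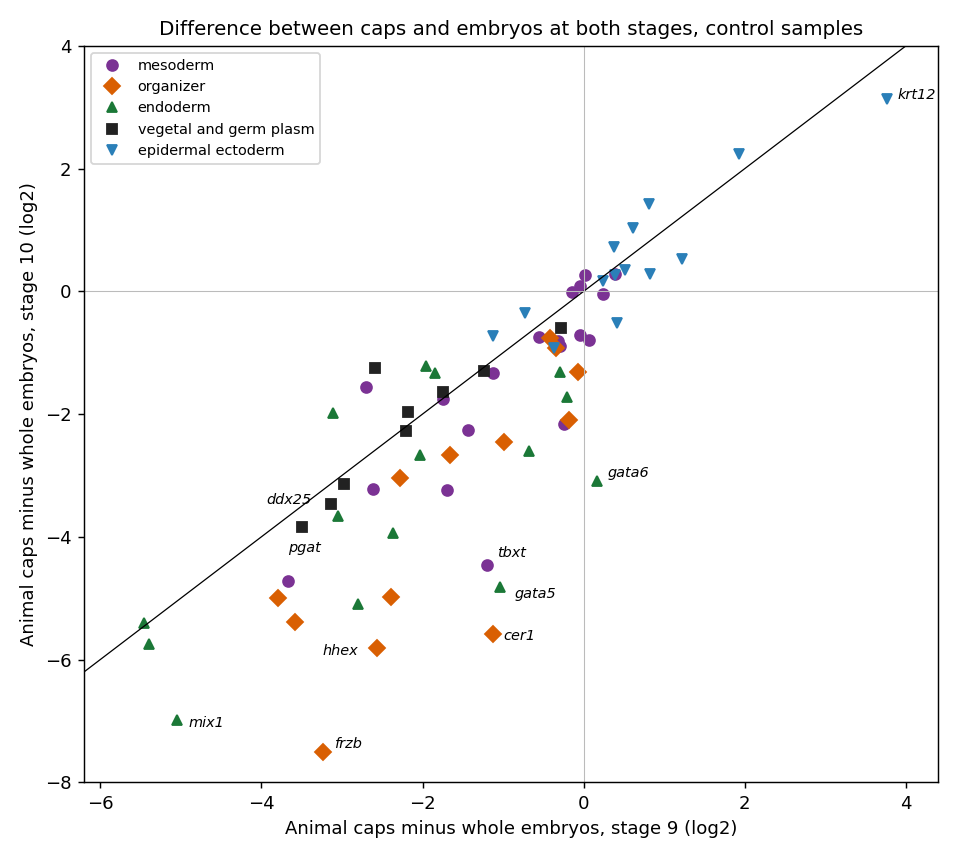
Difference between control caps and embryos (log2) at stage 9 (x axis) and stage 10 (y axis) for kept genes of 5 lists, with the line of equal differences. Cer1, gata5, gata6, frzb and tbxt lie far below the line, while ddx25, pgat and krt12 lie close to it.

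The test of that change called 1 of 21458 probes (0.00466%), with 442 at an unadjusted p under 0.05. The count was 22 without replicate 2 of the stage 9 embryos, an array with a low Cy3 signal (median 17.8), 6 without replicate 2 of the stage 9 caps, 2 without replicate 2 of the stage 10 caps and 1 without each other array. The probe was cer1. In embryos it rose from -2.35 at stage 9 to 1.73 at stage 10, and in caps it read -3.48 and then -3.86. The change in caps minus that in embryos was -4.46 ± 0.25 (SE, 95% interval -5.04 to -3.89, adjusted p = 0.00100). Gata5 behaved in the same way without passing (-3.78 ± 0.40, adjusted p = 0.0803), as did frzb (-4.27 ± 0.58, adjusted p = 0.282). Tbxt went from -1.81 to 1.28 in embryos and from -3.02 to -3.18 in caps (change -3.25 ± 0.70, adjusted p = 0.972), and gata6 from -3.78 to -0.84 in embryos and from -3.62 to -3.94 in caps (adjusted p = 0.972).

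Several genes of the vegetal and germ plasm list gave small estimates of the change. Ddx25 read 0.92 and 0.57 in embryos and -2.21 and -2.89 in caps at stages 9 and 10, and its change in caps against embryos was -0.33 (95% interval -1.09 to 0.44). The value for pgat was -0.35 (-1.91 to 1.20), for vegt -0.16 (-0.89 to 0.57) and for nanos1 -0.07 (-1.01 to 0.88). Vegt itself rose in both tissues, by 0.82 in embryos and 0.66 in caps. The intervals of the change in caps against embryos include 0 and, for pgat, changes of more than 1 log2 unit in either direction. Sox7 went the other way, from 1.81 to 0.81 in embryos and from -0.77 to -0.44 in caps (change 1.33 ± 0.28, adjusted p = 0.972). Krt12.5 was already 3.76 higher in caps at stage 9 and changed by -0.63 (-1.95 to 0.69). Of the genes that led the caps at stage 10, acod1lb stood at 3.37 at stage 9 and satpb at 1.22, with changes of 4.01 and 3.76 that did not pass (adjusted p = 1.000 and 0.890).

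**Figure D5:**
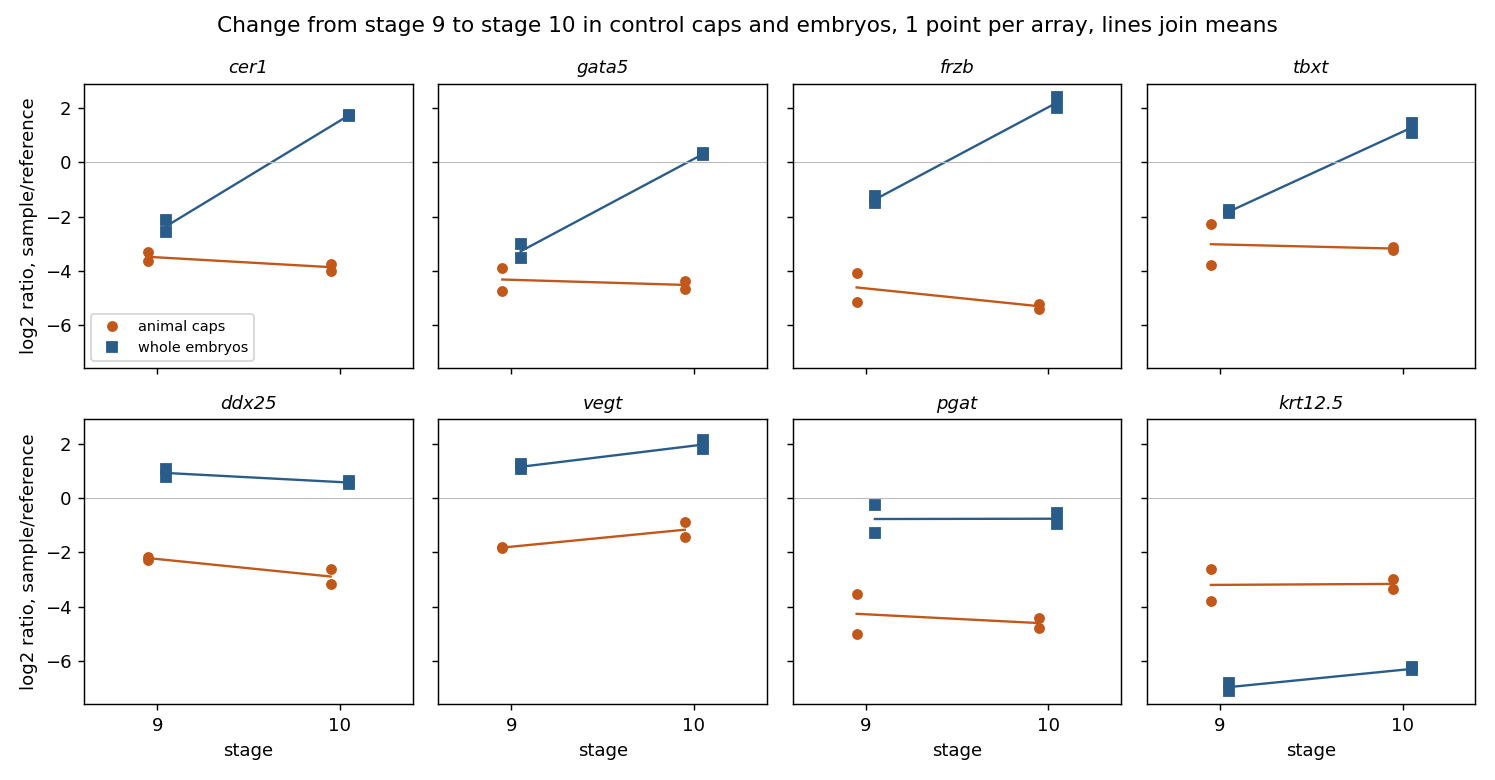
Log2 ratio of sample over reference on each control array at stages 9 and 10 (circles, animal caps; squares, whole embryos; lines join the means of 2 arrays) for 8 genes. In cer1, gata5, frzb and tbxt only the embryo line climbs, from -2.35 to 1.73 in cer1, while ddx25, vegt, pgat and krt12.5 run close to parallel.

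The arrays of PVD2 samples at stage 10 give the same tissue difference in other samples on the same slides, with 1 cap array and 2 embryo arrays. Of the 300 probes called higher in control caps, 299 were above 0 there, and of the 269 called lower, 267 were below 0, beside 73.9% and 83.9% of all kept probes on each side. The list medians in PVD2 samples were -3.61 for organizer, -2.81 for endoderm, -2.04 for vegetal and germ plasm, -1.40 for mesoderm and 0.56 for epidermal genes. Frzb stood at -6.60, mix1 at -6.77, cer1 at -5.22, tbxt at -3.57, acod1lb at 6.50 and krt12.5 at 2.80. No test of control against PVD2 was made on these values, and an offset between slides or scan days would be shared by both.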

How the data were processed

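RNA of control and PVD2 morphants was hybridized by the authors to 2-colour Agilent arrays, with sample in Cy3, reference in Cy5 and no dye swap. The authors deposited Feature Extraction 9.5.1.1 scanner files for 15 arrays, which hold spot intensity and log10 ratio values, and a table of log10 values for 16 arrays. Differences between caps and embryos in that table follow the Feature Extraction log10 ratio (r = 0.986, slope 1.01), while its centring is not stated. Aligner and genome build do not apply, and further tools are not given in the sources used here.

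Intensities were corrected with normexp (offset 50, which shrinks differences of dim probes), normalized by loess within arrays and averaged over the 2 spots of a probe. Control and outlier spots were left out. Limma 3.58.1 (R 4.3.3) fitted 1 mean per group on all 15 arrays (7 residual degrees of freedom), with Benjamini-Hochberg adjustment over all probes. P-values measure only the spread between samples, since nothing says that replicates came from separate clutches. Probes kept had at least 1 spot well above background on both arrays of the tissue with the higher ratio. Cy3 estimates, for genes not detected in caps, compare Cy3 signals after loess and Aquantile. The dim signal was raised to the lowest detected signal of any probe on the array where it fell below it. That signal is not the detection limit of the probe itself, so these folds are not strict bounds. They are also open to dye bias. Array number limits precision.

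Gene names came from the files and from RefSeq tables (Xenopus_laevis_v10.1): 4022 of 21495 probes have a name, and probes may not separate homeologs. Each list used the brightest probe of a gene. Named genes were the 10 largest called, non-overlapping differences each way, the called genes and up to 4 of the largest differences each way in each list, genes called in the change test and the class V POU genes. Admp, bambi, cdh1, cdx1, cyp26a1, evx1, foxc2, foxd4l1.2, foxf1, frzb2, fst, gsc, hoxd1, klf17.1, krt12.2, krt12.6, msgn1, nodal, nodal5, nodal6, plin2, shh, sia1, tbx6 and tbxt.2 fall outside that rule and were chosen after their values were seen. Some items of the lists are not reported here. Members and lists were chosen with earlier results of these data known. On simulated data (21495 probes), 56 of 100 probes changed by 1 log2 unit and 88 of 100 changed by 2 were called, with 14 false calls. The simulated noise was independent between arrays, unlike the deviations of same-numbered arrays described at the end. The alternatives tried are given at the end.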

Additional observations from a re-analysis of the deposited data

Results flagged for a closer look

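Cer1 was the only probe for which the difference between caps and embryos itself differed between stages by the test of that difference. Its change from stage 9 to stage 10 in caps minus that in embryos was -4.46, with the rise seen on both embryo arrays and on neither cap array. That call was lost under several of the alternatives given below. The groups of this comparison hold 2 arrays each, too few for a check of single arrays against their group.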

How the results depend on the processing

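Of the 97 genes named, 59 were called at stage 10. All 59 had the same sign under all 20 alternatives, and none was called under all 20. How often a call was lost differed widely. The call at stage 10 was lost under 15 alternatives for dlx3, 12 each for foxi4.2 and itga5 and 10 for id3, but under 1 each for frzb, cer1 and tbxt. Scaling between arrays after loess called 77 probes (43 of the 578), median centring 58 (9 higher, 49 lower, with the median of all probes at -0.14), no moderation 304 and an offset of 16 340. Scaling alone took the call from 57 of the 59 named genes. No background correction called 2055, Cy3 alone 2935, the Feature Extraction ratio 2615 (1728 higher, 887 lower), the authors' values 2607 (1668 higher) and their 15 arrays with scanner files 2291 (1480 higher). The replicate number as a block called 1242, all 578 among them. Deviations of same-numbered arrays correlated at r = 0.66 between control caps and embryos of stage 10 and above 0 in 19 of 21 pairs of groups (-0.37 to 0.88), above 0.1 in 10 of 12 on different slides. The samples thus tend to deviate with their number, although the labels do not say what it marks. Leaving out 1 array gave 103 to 185. For the change test, the counts were 0 under median centring, with only the arrays compared, with control arrays only, and with trend and robust settings. They were 2 with an offset of 16, scaling between arrays, a detection filter, the replicate block and slide as a random or fixed block, then 13 (no background correction), 14 (Feature Extraction ratio), 37 (Cy3 alone), 37 (authors' values) and 17 (their arrays with scanner files). Leaving out 1 array gave 1 to 22, the 22 without replicate 2 of the stage 9 embryos and 6 without replicate 2 of the stage 9 caps. Cer1 was called each time 1 array was left out. It was not among the 2 calls under scaling or the 14 with the Feature Extraction ratio. Its change call was thus lost under those settings and under each setting with 0 calls. Among list medians, the BMP list turned to 0.20 and the housekeeping list to 0.11 under median centring. In Cy3 alone the adhesion list turned to -0.0695, the stress list to -0.13 and odc1 to -0.91. The stress list turned to -0.0792 without replicate 2 of the caps and read 0.62 without replicate 1. The causes were not tested.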

Other observations

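Several signalling genes outside the lists, chosen after their values were seen, differed between the tissues. The gene pdgfra, which encodes the receptor for platelet-derived growth factor A in mesoderm, read -4.18 and -4.22 in caps and -0.06 and 0.24 in embryos (difference -4.29, limma adjusted p = 0.00183), and it stood at -0.85 at stage 9. The ligand gene pdgfb read 0.94 and 0.95 in caps against 0.13 and 0.29 in embryos (0.74, adjusted p = 0.0148). The Wnt receptors fzd8 (-2.76, adjusted p = 0.0229) and fzd7 (-1.24, adjusted p = 0.0373) were lower in caps, on the brighter of the 2 probes of fzd8.

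The gene stat3.2, for a transcription factor of cytokine signalling, read 1.28 and 1.29 in caps against -0.21 and -0.23 in embryos (adjusted p = 0.00823), and its difference at stage 9 was 0.16. A probe of bmpr1a, a type I BMP receptor, was higher by 1.01 in caps (adjusted p = 0.00522), whereas its other probe read -0.58 (adjusted p = 0.348), so the probes disagree.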
